A study of Mus musculus with 66 samples.

Results

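Rab GTPases are the small G proteins that mark membranes and steer vesicle traffic. Mouse gene symbols made of Rab, a number and at most one letter from a to d were taken as the family, which gave 59 symbols on the array. Of these, 51 had a probe set (the group of short probes that reads 1 transcript) with a mean at or above the 40th percentile of all 45037 probe sets, a log2 level of 5.10, and the brightest probe set stood for each gene. They are 51 of the 13196 genes tested in the same way. The other 8 symbols (Rab17, Rab19, Rab20, Rab27a, Rab32, Rab37, Rab39 and Rab44) had mean levels from 3.33 to 5.04 and were not tested. The member just inside the limit was Rab42 at 5.32, and the symbol just outside it was Rab19 at 5.04.

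A Rab protein is switched on by an exchange factor that loads it with GTP, binds effectors such as motors and tethers while it is on, and is switched off by a GTPase-activating protein. Lipid tails hold it on the membrane, and a GDP dissociation inhibitor draws the inactive form back into the cytosol. In neurons the Rab3 proteins sit on synaptic vesicles and take part in regulated release, Rab5 proteins act on early endosomes, Rab4 and Rab11 proteins return cargo to the surface, Rab7 acts on late endosomes and Rab6 on the Golgi apparatus.

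The tissue was medial prefrontal cortex of male mice aged 10 to 12 weeks. The inbred strains C57BL/6J (written C57BL6/J in the labels) and DBA/2J each had 3 arrays after saline and 3 after ethanol at 1.8 g/kg given into the peritoneum. The 27 BXD strains, recombinant inbred lines bred from a cross of those 2 progenitors, had 1 array per strain after each treatment. Every animal, saline groups included, was also restrained for 15 minutes and placed for 10 minutes in a light-dark chamber, and was killed 4 hours after the injection. One array stood for a pool of RNA from 4 to 5 mice, so the p-values of the progenitor comparisons measure the spread between pools. In the BXD comparisons, with 1 pool per strain and treatment, the spread is that of the ethanol minus saline differences over strains. It holds pool noise and any strain differences in ethanol response together. Random batch groups are described by the submitters, but the batch of each array was not used here. Levels are log2 RMA values, in which a difference of 1 is a doubling, and a gene is called where limma's adjusted p over all 13196 genes was below 0.05.

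Array medians lay between 5.67 and 5.77 and array SDs between 2.06 and 2.17. No pair of arrays was identical, and the highest correlation between 2 arrays was 0.997. Replicate 1 of DBA/2J saline had the lowest SD of the 12 progenitor arrays (2.07). The neuronal markers used for this tissue (Snap25, Syt1, Rbfox3, Tubb3, Stmn2 and Nefl) had mean levels from 11.71 to 11.97 over all 66 arrays. All 6 measured oligodendrocyte markers were lower in DBA/2J, with a median difference of -0.48. Their mean level was 9.06 to 9.15 in C57BL/6J saline, 8.83 to 9.05 in C57BL/6J ethanol, 8.33 to 8.64 in DBA/2J saline and 8.51 to 8.55 in DBA/2J ethanol. None of the 6 neuronal markers was called between the progenitors. Also lower in DBA/2J were 1 of 3 glutamatergic neuron markers, 2 of 6 astrocyte markers and 3 of 6 markers of meninges and fibroblasts, and of 7 microglial markers 2 were lower and 1 higher. In these bulk samples, fewer cells of a type and less RNA per cell cannot be told apart, and the part of these cell types in the strain differences of Rab genes was not tested.

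Promoter windows, 250 bases before to 50 bases after the start of a transcript, were matched by symbol for 42 of the 51 members in RefSeq's GRCm38.p6 table. The 4 printed here belong to the members that differed between the progenitors and had exactly 1 window, and they are shown so that the genes with opposite strain differences can be read side by side. Capitals mark matches, on either strand, to the CCAAT box (CCAAT), the GC box (GGGCGG), the core of the cyclic AMP response element (TGACGT) and the E-box (CACGTG), motifs that were chosen after the sequences were seen.
Rab6a, lower in DBA/2J, chr7:100607336-100607635, plus strand: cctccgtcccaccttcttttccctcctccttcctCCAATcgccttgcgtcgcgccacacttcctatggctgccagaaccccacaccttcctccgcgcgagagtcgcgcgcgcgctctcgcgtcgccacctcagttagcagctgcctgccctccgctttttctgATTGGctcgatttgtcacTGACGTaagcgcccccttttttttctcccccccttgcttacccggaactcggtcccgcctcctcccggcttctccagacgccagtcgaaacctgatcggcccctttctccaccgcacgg
Rab3c, lower in DBA/2J, chr13:110280157-110280456, minus strand: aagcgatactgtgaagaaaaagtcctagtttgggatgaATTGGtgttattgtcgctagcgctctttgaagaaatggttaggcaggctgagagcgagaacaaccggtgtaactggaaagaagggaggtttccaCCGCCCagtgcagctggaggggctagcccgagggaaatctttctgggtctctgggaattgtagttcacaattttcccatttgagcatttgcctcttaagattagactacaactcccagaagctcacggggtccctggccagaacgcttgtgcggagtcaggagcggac
Rab3b, higher in DBA/2J, chr4:108878820-108879119, plus strand: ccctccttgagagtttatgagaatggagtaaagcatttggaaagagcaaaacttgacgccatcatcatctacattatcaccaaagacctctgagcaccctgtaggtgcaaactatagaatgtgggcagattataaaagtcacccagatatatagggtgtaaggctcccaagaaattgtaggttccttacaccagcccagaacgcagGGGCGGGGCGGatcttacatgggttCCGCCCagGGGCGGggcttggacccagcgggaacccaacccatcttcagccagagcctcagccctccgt
Rab24, higher in DBA/2J, chr13:55321931-55322230, minus strand: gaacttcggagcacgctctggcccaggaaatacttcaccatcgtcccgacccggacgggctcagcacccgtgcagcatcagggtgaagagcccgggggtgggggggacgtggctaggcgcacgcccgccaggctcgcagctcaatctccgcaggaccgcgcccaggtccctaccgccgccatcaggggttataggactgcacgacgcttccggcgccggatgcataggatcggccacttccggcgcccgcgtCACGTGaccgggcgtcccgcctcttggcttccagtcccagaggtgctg
The reference sequence is that of C57BL/6J, so it does not show how DBA/2J differs at these places.

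The Rab6a window, with 62.7% G and C, held CCAAT 2 times and TGACGT 1 time. The Rab3c window held CCAAT 1 time and GGGCGG 1 time. The Rab3b window held GGGCGG 4 times, and the first of these overlaps the next by a base. The Rab24 window, the richest in G and C of the set at 68.7%, held CACGTG 1 time. Of all 32851 windows in the table, 37.4% held CCAAT, 35.7% GGGCGG, 7.51% TGACGT and 7.15% CACGTG. Of the 53 windows of Rab members, 45.3% held CCAAT, 71.7% GGGCGG, 11.3% TGACGT and 7.55% CACGTG. A match is a description of letters and not a binding site, and no motif was common to all 4 windows.

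The first comparison asked which Rab genes differed between the progenitor strains, with saline and ethanol arrays averaged. Of the 51 Rab genes, 8 were called (15.7%), beside 16.7% of all genes tested, so the family's share was near the background. Higher in DBA/2J were 5 of them (Rab3a, Rab3b, Rab4a, Rab24 and Rab34), and lower were 3 (Rab3c, Rab6a and Rab26). Over all genes, 8.84% were called higher and 7.88% lower. The median difference over the family was 0.02, beside 0.03 over all genes, and 27 members were positive and 24 negative. In 5 of the 51 genes (9.8%) the 6 arrays of one strain did not overlap the 6 of the other, beside 8.81% of all genes: Rab6a, Rab3c, Rab26, Rab4a and Rab14.

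**Figure D1:**
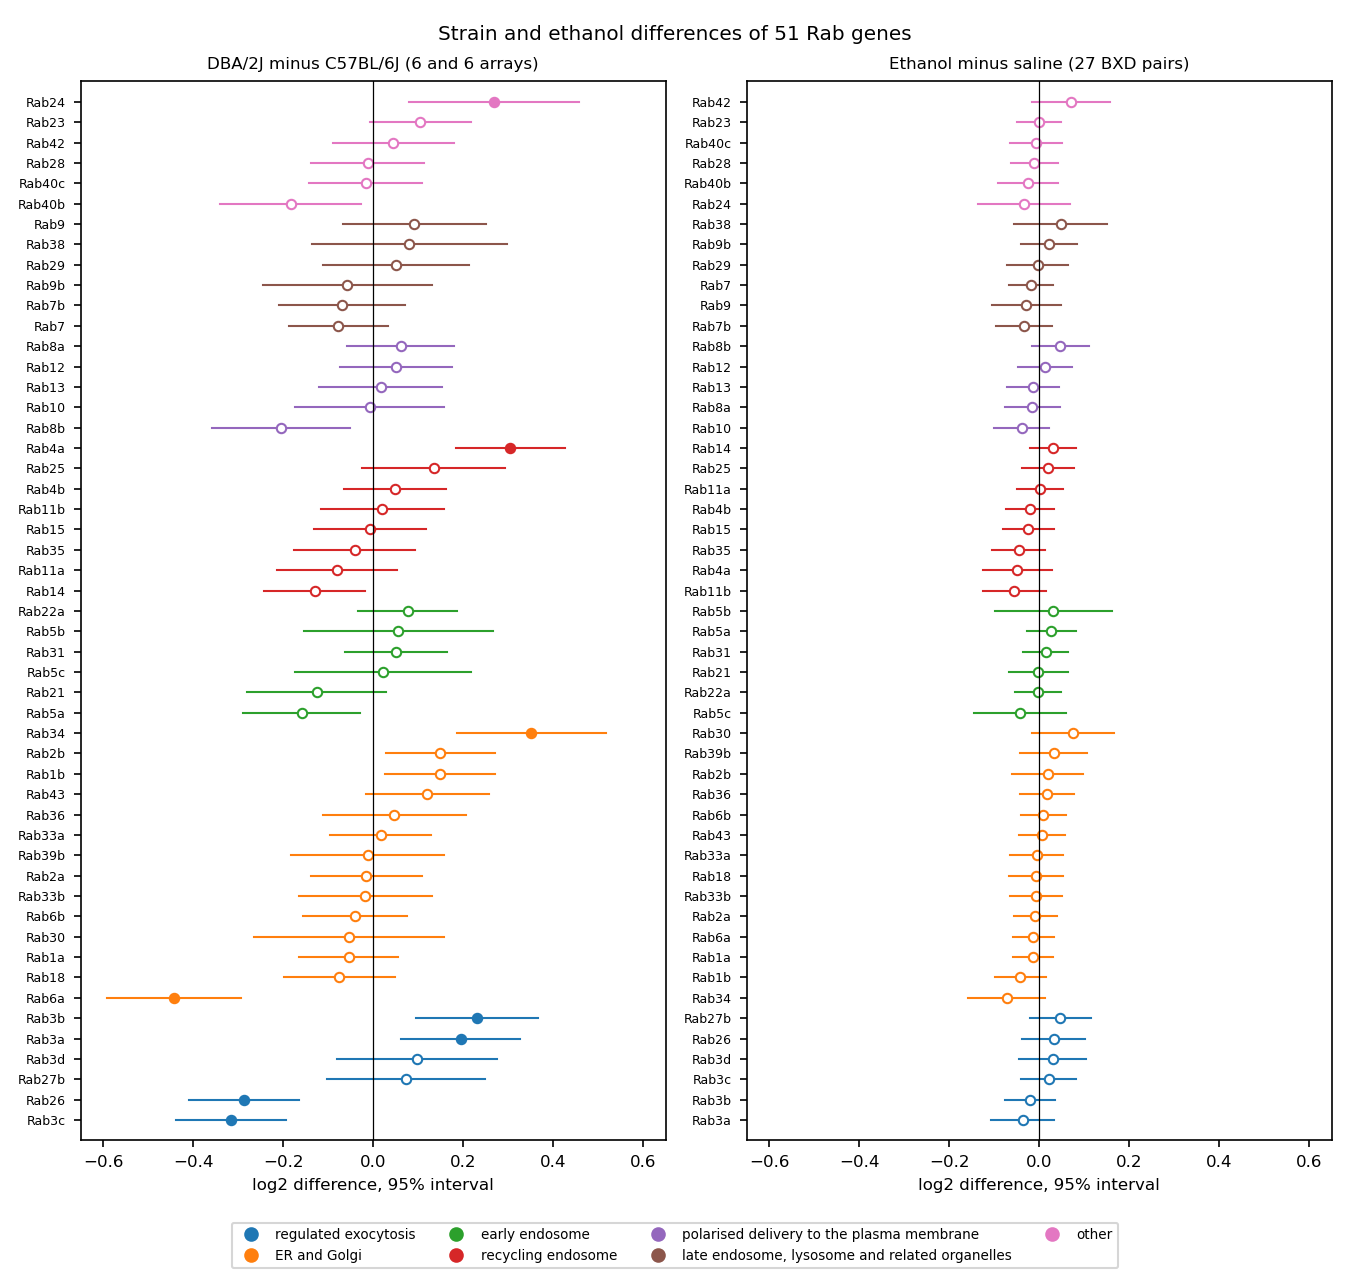
Log2 difference (x axis) of each of the 51 Rab genes (y axis, ordered and coloured by role) between DBA/2J and C57BL/6J over 12 arrays (left) and between ethanol and saline over 27 BXD strains (right). Bars are 95% intervals and filled points have an adjusted p below 0.05: 8 genes are filled on the left and 0 on the right, where every interval lies within -0.16 to 0.17.

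The 6 measured Rab genes of regulated exocytosis held 4 of the 8 calls, 2 in each direction. Over all genes 16.7% were called, and counts for roles of so few genes, in lists written with earlier results known, are a description. Rab3c, a synaptic vesicle Rab of the Rab3 subfamily, stood at 10.84, 10.94 and 10.71 in C57BL/6J saline and at 10.77, 10.68 and 10.72 in C57BL/6J ethanol. Its DBA/2J levels were 10.36, 10.51 and 10.50 after saline and 10.41, 10.52 and 10.46 after ethanol. Every DBA/2J array was below every C57BL/6J array. The difference was -0.32 (SE 0.06, adjusted p = 0.00109), a 1.24-fold lower level in DBA/2J.

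Rab26, which acts on secretory granules and synaptic vesicles, went the same way. Its levels were 7.95, 7.96 and 7.73 in C57BL/6J saline and 7.75, 7.84 and 7.72 in C57BL/6J ethanol. DBA/2J gave 7.51, 7.61 and 7.48 after saline and 7.57, 7.49 and 7.56 after ethanol. Again no DBA/2J array reached the lowest C57BL/6J array. The difference was -0.29 (SE 0.06, adjusted p = 0.00253), a 1.22-fold lower level. Fitted on all 66 arrays, with the BXD arrays adding to the estimate of spread, the adjusted p was 0.125. That fit has no term for BXD strain, so the differences among the BXD strains are part of its spread.

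Rab3b and Rab3a were higher in DBA/2J, opposite to Rab3c of the same subfamily, although a second probe set of Rab3a read the opposite way (-0.30). Rab3b read 8.90, 8.86 and 8.82 in C57BL/6J saline, 8.79, 8.61 and 8.59 in C57BL/6J ethanol, 8.86, 9.004 and 9.13 in DBA/2J saline, and 9.08, 8.86 and 9.01 in DBA/2J ethanol. The strains overlapped near 8.86 after saline and were separate after ethanol. Its difference was 0.23 (SE 0.06, adjusted p = 0.02). It missed the threshold without DBA/2J saline replicate 3, C57BL/6J ethanol replicate 3 or DBA/2J ethanol replicate 1 (adjusted p 0.0524 to 0.0589).

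Rab3a, the most studied Rab of synaptic vesicles, read 11.46, 11.47 and 11.66 in C57BL/6J saline and 11.45, 11.61 and 11.49 in C57BL/6J ethanol. The DBA/2J levels were 11.78, 11.79 and 11.87 after saline and 11.71, 11.67 and 11.47 after ethanol. The saline arrays were separate and the ethanol arrays overlapped, with DBA/2J ethanol replicate 3 down among the C57BL/6J arrays. The difference was 0.19 (SE 0.06, adjusted p = 0.0423). It missed the threshold in 9 of the 12 settings that left out 1 array, all but C57BL/6J saline replicate 3, C57BL/6J ethanol replicate 2 and DBA/2J ethanol replicate 3 (adjusted p 0.0504 to 0.113). The others of the role were Rab3d at 0.10 (SE 0.08) and Rab27b, a Rab of granule release, at 0.07 (SE 0.08), neither called.

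Rab6a, a Golgi Rab that moves cargo both back to the endoplasmic reticulum and out toward the surface, had the smallest p of the family. It stood at 12.14, 11.85 and 12.00 in C57BL/6J saline and 12.19, 12.08 and 12.07 in C57BL/6J ethanol. DBA/2J gave 11.28, 11.63 and 11.58 after saline and 11.71, 11.72 and 11.75 after ethanol. The highest DBA/2J array was below the lowest C57BL/6J array. The difference was -0.44 (SE 0.07, adjusted p = 3.2e-04), a 1.36-fold lower level. The lowest value of the 12 came from DBA/2J saline replicate 1, and the call held in each of the 12 settings that left out 1 array, that one included.

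Of the 14 measured Rab genes of the endoplasmic reticulum and Golgi, Rab6a and Rab34 were called, beside 16.7% of all genes. Rab34, tied to Golgi and lysosome position and to formation of cilia, read 7.38, 7.41 and 7.64 in C57BL/6J saline, 7.48, 7.54 and 7.42 in C57BL/6J ethanol, 7.65, 7.80 and 8.00 in DBA/2J saline, and 7.64, 7.87 and 8.01 in DBA/2J ethanol. The strains touched at 7.64 and were otherwise separate. Its difference was 0.35 (SE 0.08, adjusted p = 0.00524), a 1.28-fold higher level in DBA/2J. Rab1a and Rab1b, which act between the endoplasmic reticulum and the Golgi, differed by -0.05 (SE 0.05) and 0.15 (SE 0.06) and were not called.

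Rab4a, which returns receptors from early endosomes to the surface, was the 1 called gene of 8 recycling Rabs, beside 16.7% of all genes. Its levels were 8.47, 8.44 and 8.52 in C57BL/6J saline and 8.45, 8.38 and 8.34 in C57BL/6J ethanol. DBA/2J gave 8.76, 8.68 and 8.68 after saline and 8.79, 8.62 and 8.89 after ethanol. All DBA/2J arrays lay above all C57BL/6J arrays. The difference was 0.30 (SE 0.06, adjusted p = 0.00145), a 1.23-fold higher level. Rab11a and Rab11b, the main Rabs of the slower recycling route, differed by -0.08 (SE 0.06) and 0.02 (SE 0.06) and were not called, and Rab14 had a difference of -0.13 (SE 0.05, adjusted p = 0.106) although its arrays did not overlap.

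Rab24, an atypical Rab linked to autophagy, read 8.60, 8.61 and 8.999 in C57BL/6J saline, 9.05, 8.77 and 8.62 in C57BL/6J ethanol, 8.85, 8.93 and 9.08 in DBA/2J saline, and 9.26, 9.16 and 8.98 in DBA/2J ethanol. The strains overlapped, since C57BL/6J saline replicate 3 and C57BL/6J ethanol replicate 1 reached DBA/2J levels. The difference was 0.27 (SE 0.09, adjusted p = 0.0499), just inside the threshold. It missed it in 8 of 12 settings that left out 1 array, all but C57BL/6J saline replicate 3, DBA/2J saline replicate 1, C57BL/6J ethanol replicate 1 and DBA/2J ethanol replicate 3 (adjusted p 0.0711 to 0.129).

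No call fell among the 6 Rab genes of early endosomes, the 6 of late endosomes and lysosomes, or the 5 of delivery to the plasma membrane. With 16.7% of all genes called, roles of this size are too small to read a lack of calls as a result. Rab5a, the early endosome Rab that drives fusion, came nearest of the endosomal set, at -0.16 (SE 0.06, adjusted p = 0.0904), and passed without DBA/2J saline replicate 2 (difference -0.20, adjusted p = 0.0284). Rab7, the late endosome Rab, stood at -0.08 (SE 0.05). Rab8b, a Rab of delivery to the surface, stood at -0.21 (SE 0.07, adjusted p = 0.0636).

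**Figure D2:**
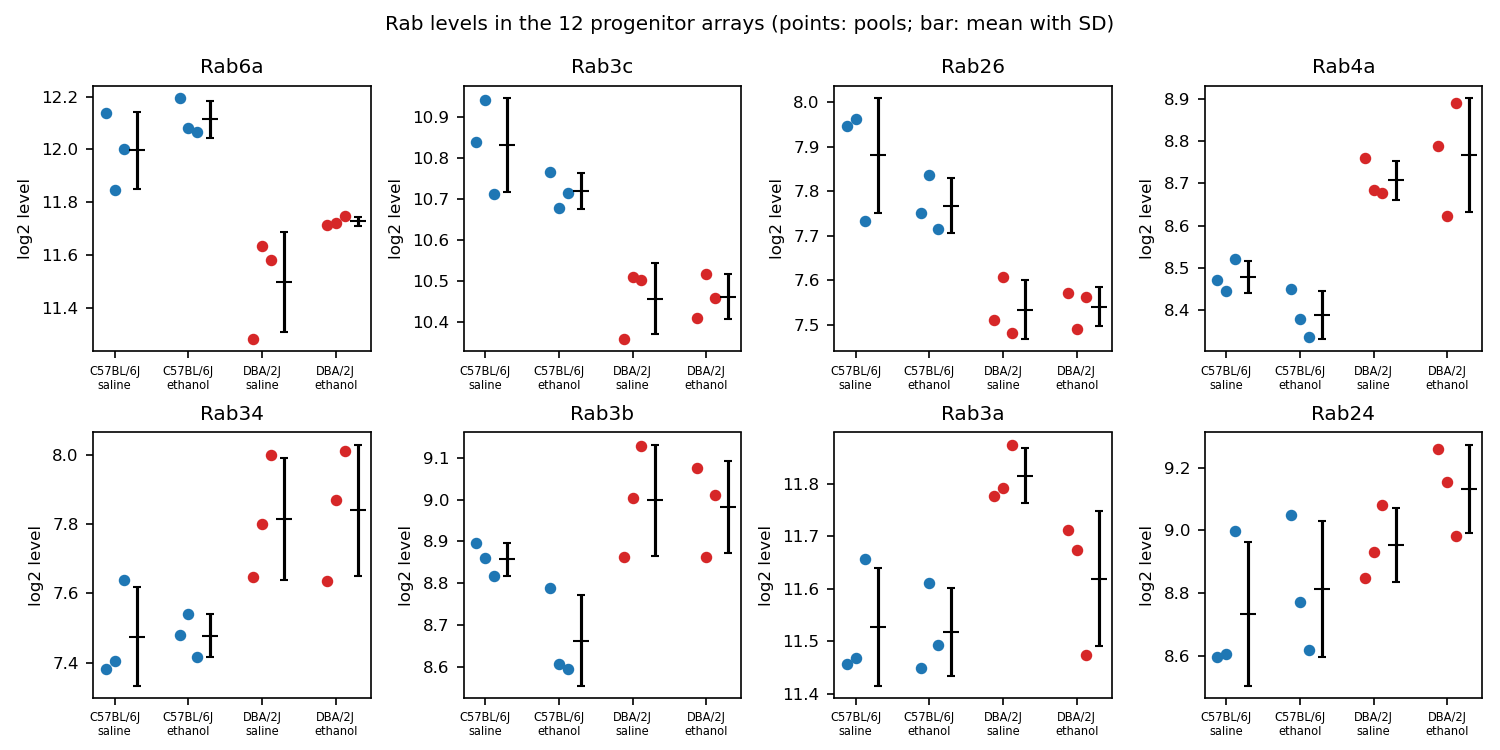
Log2 level (y axis) of the 8 Rab genes called between the progenitors in each of the 12 progenitor arrays, by strain and treatment (x axis, 3 arrays a group). Rab6a, Rab3c and Rab26 are lower and Rab4a higher in every DBA/2J array, while Rab3a, Rab3b, Rab24 and Rab34 overlap between the strains.

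Within saline arrays alone, 6 of 51 Rab genes were called (11.8%), beside 10.3% of all genes. They were Rab6a (-0.50, SE 0.10), Rab3c (-0.37, SE 0.08), Rab26 (-0.35, SE 0.08) and Rab40b (-0.37, SE 0.10), lower in DBA/2J, and Rab43 (0.32, SE 0.09) and Rab3a (0.29, SE 0.09), higher. Over all genes, 4.07% were called higher and 6.27% lower. The count was 2 without C57BL/6J saline replicate 1 and 2 without C57BL/6J saline replicate 2, and 4 without DBA/2J saline replicate 1. The call of Rab3a (adjusted p = 0.0492) was lost in 9 of the 12 settings that left out 1 array, the same 9 as for its average over treatments (adjusted p 0.0558 to 0.171). Rab26 was lost without C57BL/6J saline replicate 1 or 2 (0.0546 to 0.0603). Rab40b, a Rab with a SOCS box that serves a ubiquitin ligase, read 9.21, 9.21 and 9.24 in C57BL/6J saline and 8.62, 8.97 and 8.95 in DBA/2J saline. Its lowest value came from DBA/2J saline replicate 1, without which the difference was -0.26 (adjusted p = 0.153), and the call was also lost without any 1 of the C57BL/6J saline arrays. Rab43, a Golgi Rab, read 6.70, 6.68 and 6.72 in C57BL/6J saline and 7.15, 6.84 and 7.10 in DBA/2J saline. Its call too was lost without DBA/2J saline replicate 1 (0.26, adjusted p = 0.133) and without DBA/2J saline replicate 3. Leaving out any 1 of the C57BL/6J saline arrays also ended the call of Rab43. Averaged over treatments, its dimmer probe set read the opposite way (-0.09, SE 0.08) to the brighter (0.12, SE 0.07), neither called.

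Within ethanol arrays alone, 3 Rab genes were called (5.88%), beside 7.23% of all genes. Rab4a (0.38, SE 0.08, adjusted p = 0.00749) and Rab3b (0.32, SE 0.09, adjusted p = 0.0423) were higher in DBA/2J, and Rab6a (-0.39, SE 0.10, adjusted p = 0.0254) was lower. Over all genes, 4.34% were called higher and 2.89% lower. The count was 1 without C57BL/6J ethanol replicate 3 or DBA/2J ethanol replicate 3, and 5 without DBA/2J saline replicate 1, which enters this comparison through the shared estimate of spread. Rab6a was called after either treatment, but its ethanol call was lost in 5 settings that left out 1 array, and that of Rab3b in 8. Whether a strain difference itself depended on treatment is the progenitor interaction given with the ethanol results.

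The BXD panel asked which Rab genes keep a level that belongs to the strain. The saline and the ethanol array of a strain come from separate pools. The intraclass correlation (ICC) between them is near 1 where differences among strains are large beside those between the arrays of a strain. It is near 0 or below where they are not, and a low ICC does not show that strain has no effect. Of 51 Rab genes, 9 differed among the 27 strains (17.6%), beside 20.4% of all genes. They were Rab6a (ICC 0.80, adjusted p = 4.04e-05), Rab26 (0.70, adjusted p = 3.41e-05), Rab2a (0.64, adjusted p = 0.00652), Rab9b (0.49), Rab7b (0.49), Rab27b (0.48), Rab40b (0.47), Rab30 (0.46) and Rab39b (0.40, adjusted p = 0.0371).

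Rab6a ran from 11.71 in BXD28 to 12.15 in BXD33 as means of both arrays of a strain, with a median of 11.93. The 27 strains fell between the progenitor means (11.61 in DBA/2J, 12.06 in C57BL/6J) in 18 cases and above both in 9, and 19 were nearer to C57BL/6J. Rab26 ran from 7.20 in BXD38 to 7.99 in BXD14, a 1.73-fold span. For that gene 11 strains were below both progenitors, 11 between them and 5 above both. At the brightest probe set, Rab6a and Rab26 were the 2 genes called both between the progenitors, averaged over treatments, and among the BXD strains. Rab40b was called between the progenitors after saline alone. Over all probe sets, a dimmer probe set of each of Rab3c, Rab34 and Rab8a was also called in both comparisons.

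Rab2a, which acts between the endoplasmic reticulum and the Golgi, did not differ beyond error between the progenitors (-0.02, SE 0.06), yet it ran from 11.47 in BXD38 to 11.90 in BXD05. Of its strains 18 were above both progenitor means, 6 below both and 3 between. Rab30, another Golgi Rab, ran from 6.63 in BXD38 to 7.57 in BXD28, a 1.92-fold span, with progenitor means of 7.18 in C57BL/6J and 7.12 in DBA/2J. Rab39b, a neuron-rich Rab whose loss in humans causes an X-linked intellectual disability, ran from 7.95 in BXD38 to 8.73 in BXD34, and its call was lost without BXD38. Rab27b ran from 7.94 in BXD20 to 8.50 in BXD34. Rab40b ran from 8.87 in BXD16 to 9.43 in BXD22. The dimmer probe sets of Rab30, Rab39b and Rab40b had ICCs of -0.02, 0.16 and 0.21, and none of these was called. Over all probe sets, 3 of 5 of Rab2a, 2 of 4 of Rab27b and 2 of 3 of Rab6a were called among the BXD strains.

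Rab9b and Rab7b, both placed on late endosomes, spanned 7.32 to 7.82 and 6.05 to 6.53. The other 6 genes called between the progenitors were not called among the BXD strains at their brightest probe sets. Rab3c had an ICC of 0.38 (adjusted p = 0.0889), with 21 strains between the progenitor means and 20 nearer to DBA/2J. Over all probe sets, 2 of the 4 of Rab3c were called, at ICC 0.43 (adjusted p = 0.0178) and, for the dimmest, 0.54 (0.00535). Of Rab34, the dimmer of 2 was called (ICC 0.60, adjusted p = 0.0078), and the brighter had an ICC of 0.19. No probe set of Rab3a, Rab3b, Rab4a or Rab24 was called among the BXD strains. Rab4a had an ICC of -0.05 and Rab3a of -0.29, and their strains spanned 8.46 to 8.86 and 11.48 to 11.72. Rab4a strains were nearer to DBA/2J in 24 of 27 cases, and Rab3a strains nearer to C57BL/6J in 19. Rab24 had an ICC of -0.18, and its strain means spanned 8.79 to 9.31.

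**Figure D3:**
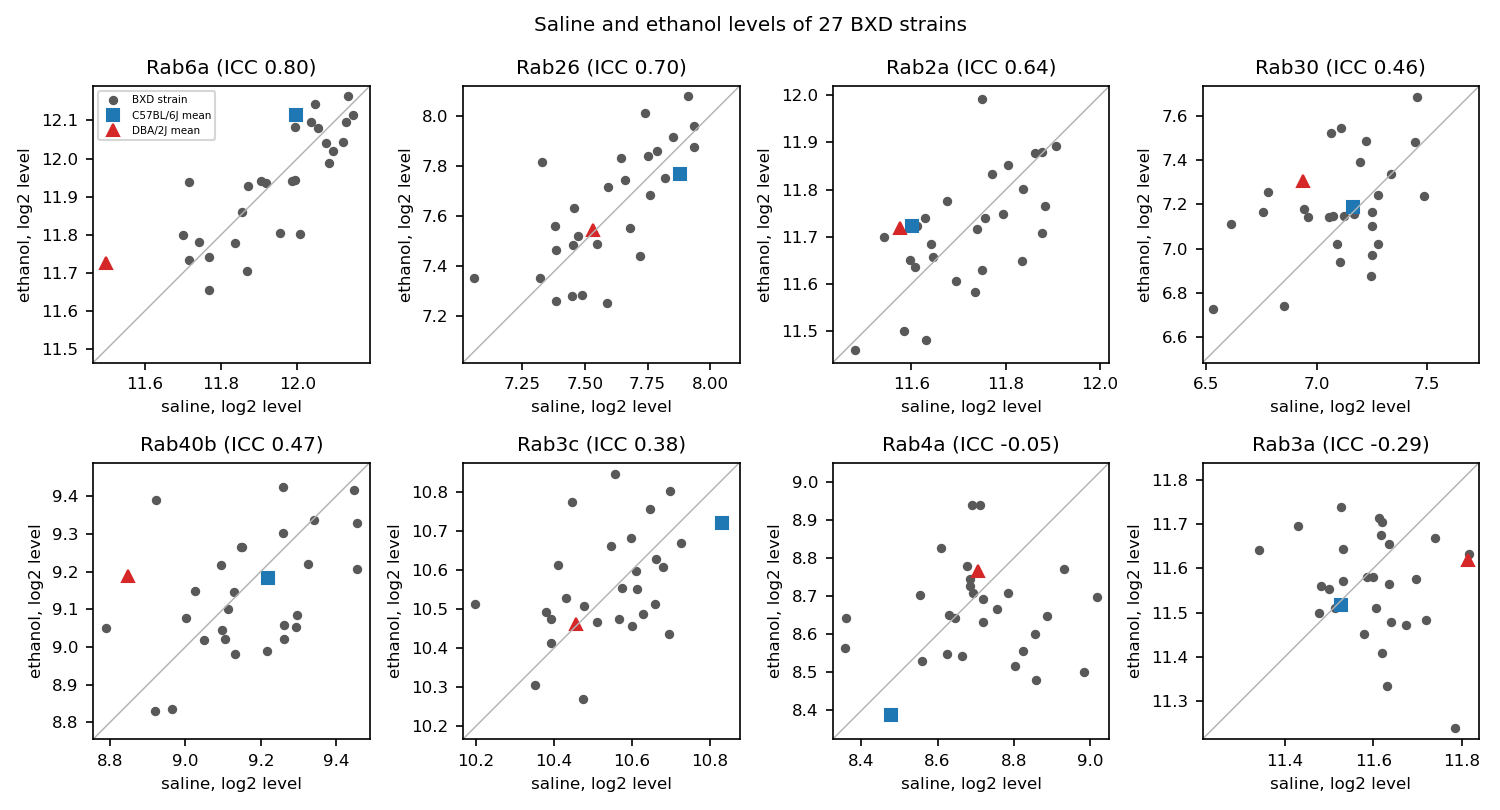
Log2 level after saline (x axis) and after ethanol (y axis) in each of 27 BXD strains for 8 Rab genes, with the progenitor group means and the line of equal levels. Rab6a (ICC 0.80) and Rab26 (0.70) follow the line, while Rab4a (-0.05) and Rab3a (-0.29) form a cloud without order.

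BXD38 held the lowest level of the 27 strains for 12 of the 51 Rab genes, and no other strain did so for more than 4. Its mean over the 51 genes was 8.74, with the remaining strains from 8.78 to 8.86, and its arrays had SDs of 2.07 after each treatment. Without BXD38, 7 Rab genes differed among strains, and Rab30 (ICC 0.33, adjusted p = 0.0702) and Rab39b (ICC 0.11, adjusted p = 0.434) were not called. Rab39b was also lost without BXD11, BXD12 or BXD34 (adjusted p 0.0547 to 0.0761). Without BXD22 the count was also 7, with Rab40b (adjusted p = 0.0501) and Rab9b (adjusted p = 0.0517) outside. Among the 36 pairs of the 9 genes, Pearson correlations over 27 strain means ran from -0.32 to 0.67, and 9 were over 0.5 in size. They are a description, since all genes of a strain share its 2 arrays. Rab30 with Rab39b had the highest, 0.67 (Spearman 0.60), which was 0.52 (Spearman 0.55) without BXD38. Without BXD38 the highest of the 36 was 0.59 and 6 were over 0.5 in size.

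Rab6a lies on chromosome 7. Of the 10 measured genes nearest to it in RefSeq order, 3 were called between the progenitors (Mrpl48, Fam168a and Relt), and 4 among the BXD strains. Rab26 lies on chromosome 17, and of its 10 neighbours 1 (Zfp598) was called between the progenitors and 0 among the BXD strains. Rab3a, on chromosome 8, had 5 called neighbours of 10 and Rab4a, on the same chromosome, had 4 of 10. Rab40b had 0 of 10. Over all genes 16.7% were called between the progenitors and 20.4% among the BXD strains, and with 10 neighbours a gene these counts are a description. Sequence differences between the strains under the probes were not tested.

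Ethanol was compared first over the BXD strains, each against its own saline array. limma called 0 of the 51 Rab genes, beside 0.00758% of all genes (1 gene, Npas4, at 0.84). An unadjusted p below 0.05 was found for 0 of the 51, beside 4.93% of the genes tested. Differences ran from -0.07 to 0.07, 21 positive and 30 negative, with a median of -0.01, the same as over all genes. Every 95% interval for the mean change over the 27 strains lay within -0.157 to 0.166, at this dose and time. These intervals were taken gene by gene and do not bound the change in a single strain. Differences between the ethanol and saline arrays of a single strain ran from -0.96 (Rab5c) to 0.94 (Rab5b).

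The smallest p-values belonged to Rab34 (-0.07, SE 0.04), Rab30 (0.07, SE 0.04), Rab42 (0.07, SE 0.04) and Rab11b (-0.06, SE 0.03), all with an adjusted p of 0.957. Rab34 in BXD saline arrays ran from 7.23 through a median of 7.66 to 8.12, and in BXD ethanol arrays from 7.22 through 7.59 to 7.82. It was lower after ethanol in 17 of 27 strains, and the groups overlapped over nearly their whole range. Rab30 was higher after ethanol in 16 of 27 strains. Of the best known members, Rab3a differed by -0.04 (interval -0.106 to 0.0328), Rab5a by 0.03 (-0.0274 to 0.0809), Rab7 by -0.02 (-0.0667 to 0.0305) and Rab11a by 0.00 (-0.0503 to 0.0535).

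In C57BL/6J, 0 of 51 Rab genes were called after ethanol, beside 0.00758% of the genes tested, and before adjustment 2 had a p below 0.05 (3.92%, beside 4.98%). Rab29, a Rab of the trans-Golgi network that recruits the kinase Lrrk2, read 5.76, 5.74 and 5.70 after saline and 5.88, 5.94 and 6.33 after ethanol. The groups did not overlap, and replicate 3 of the ethanol group lay well above the others. The difference was 0.32 (SE 0.11, adjusted p = 0.922), and 0.18 without that array. Rab3b, next in order of p, differed by -0.19 (SE 0.09, adjusted p = 0.922).

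In DBA/2J, 0 of 51 were called, beside 0% of the genes tested, and before adjustment 10 had a p below 0.05 (19.6%, beside 12.5%). Rab43 read 7.15, 6.84 and 7.10 after saline and 6.71, 6.81 and 6.65 after ethanol, with no overlap and a difference of -0.30 (SE 0.09, adjusted p = 0.217). Rab40b read 8.62, 8.97 and 8.95 after saline and 9.13, 9.14 and 9.29 after ethanol, again without overlap, with a difference of 0.34 (SE 0.10, adjusted p = 0.234). Rab39b read 8.01, 8.49 and 8.29 after saline and 8.62, 8.57 and 8.65 after ethanol, with a difference of 0.35 (SE 0.11, adjusted p = 0.25). For Rab40b and Rab39b the lowest array was DBA/2J saline replicate 1, without which the differences were 0.23 and 0.22. Rab7b stood at -0.27 (SE 0.09, adjusted p = 0.276), and at -0.16 without that array. These 3 DBA/2J saline arrays also enter the strain comparison after saline, so the 2 sets of values are not independent.

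Averaged over both progenitors, 0 of 51 were called, beside 0.0455% of the genes tested, and before adjustment 5 had a p below 0.05 (9.8%, beside 8.84%). The smallest p-values were those of Rab29 (0.20, SE 0.08), Rab6a (0.17, SE 0.07), Rab2a (0.13, SE 0.06) and Rab5b (-0.22, SE 0.10), with adjusted p between 0.48 and 0.531. Without C57BL/6J ethanol replicate 3 the differences of Rab29 and Rab5b were 0.13 and -0.13. On average over the BXD strains Rab29 differed by -0.003, Rab6a by -0.013, Rab2a by -0.009 and Rab5b by 0.031. None of these was called, and each was opposite in sign to the progenitor average. All members differed by at most 0.07 in size over the BXD strains. The 12 progenitor arrays give wider intervals than the BXD panel, between -0.43 and 0.407 over the 51 genes.

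The ethanol difference of DBA/2J minus that of C57BL/6J gave 0 called Rab genes, beside 0% of the genes tested, and 4 with a p below 0.05 before adjustment (7.84%, beside 8.31%). Rab7b, a late endosome Rab, read 6.26, 6.21 and 6.19 in C57BL/6J saline and 6.44, 6.38 and 6.43 in C57BL/6J ethanol. In DBA/2J it read 6.61, 6.25 and 6.29 after saline and 6.20, 6.11 and 6.02 after ethanol. The ethanol arrays lay above saline in C57BL/6J and below it in DBA/2J, with a difference of the 2 effects of -0.47 (SE 0.13, adjusted p = 0.563). The values of Rab43 (-0.41, SE 0.13), Rab40b (0.38, SE 0.15) and Rab39b (0.37, SE 0.16) did not pass either, with adjusted p from 0.563 to 0.581. Without DBA/2J saline replicate 1 the value of Rab39b was 0.24. A p that misses the threshold does not show that the strains respond alike.

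Of the 51 genes, 31 had more than 1 probe set past the filter, which gave 106 probe sets in all for the family, and the probe sets of a gene served as a second reading of the strain difference. In 18 of the 31 genes all probe sets differed in the same direction, and in 13 they did not. All 3 probe sets of Rab6a were lower in DBA/2J (-0.44, -0.25 and -0.33), and all 4 of Rab3c were (-0.32, -0.47, -0.46 and -0.18). Both of Rab4a were higher (0.30 and 0.32), as were both of Rab34 (0.35 and 0.25) and both of Rab24 (0.27 and 0.40). Rab26 had 1 probe set. The brighter probe set of Rab4a, the dimmer of Rab24 and the brightest of Rab14 are of a kind that can read more than 1 transcript. The dimmest of Rab6a (-0.33) is of a kind that can cross-hybridise. Over all probe sets, limma called the dimmer of Rab24 (adjusted p = 0.0033) and not the brighter (0.0637).

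Rab3a gave opposite readings. Its brighter probe set was higher in DBA/2J by 0.19 (adjusted p = 0.0559 over all 23199 probe sets of named genes), and its other, of a kind that can cross-hybridise, was lower by -0.30 (SE 0.06, adjusted p = 0.004). The direction of Rab3a between the strains therefore depends on the probe set. Over all probe sets, 17 of the family's 106 were called, in 11 genes, beside 14.4% of all probe sets. No gene had probe sets called in both directions.

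**Figure D4:**
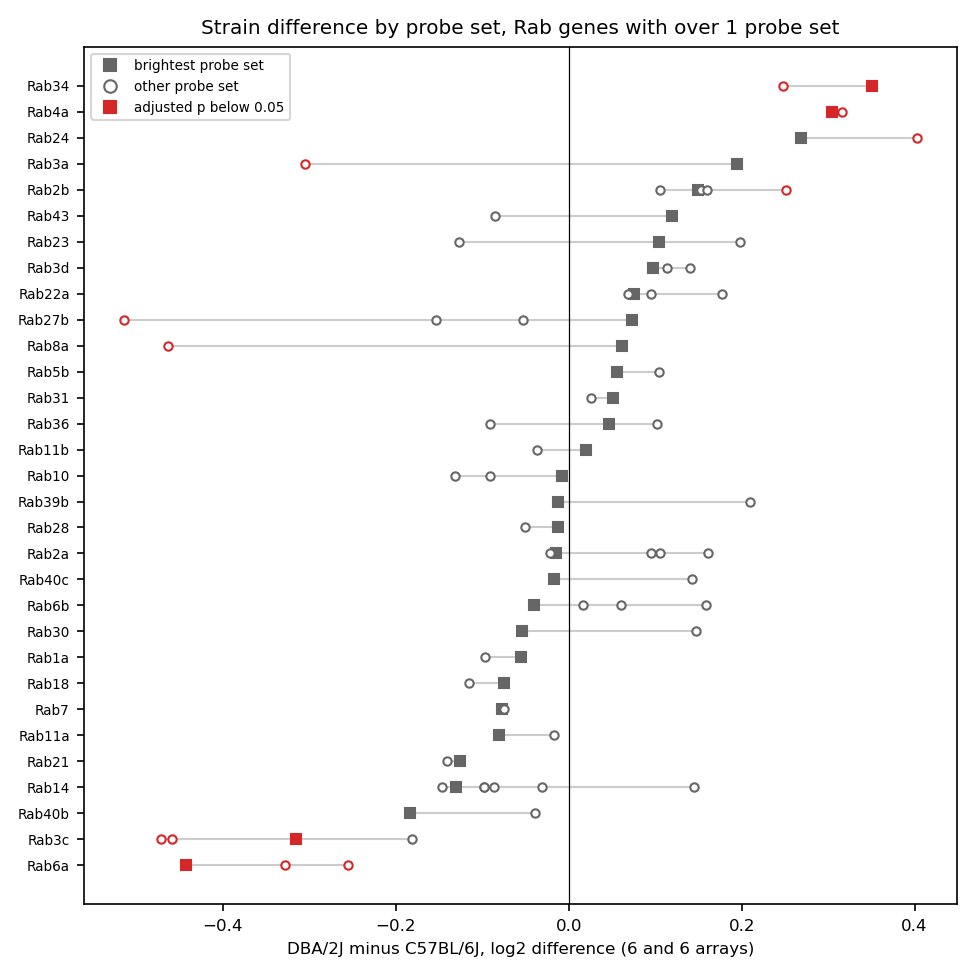
Log2 difference of DBA/2J minus C57BL/6J (x axis) for each probe set of the 31 Rab genes with more than 1 (y axis), over 12 arrays. The probe sets of Rab6a and Rab3c all lie below 0 and those of Rab4a, Rab34 and Rab24 above 0, while the pair of Rab3a lies on opposite sides, at 0.19 and -0.30.

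The machinery that switches Rabs was read from gene lists written for this family. Of 36 measured exchange factors (43 listed), 5 were called between the progenitors, 3 higher in DBA/2J and 2 lower. Of 35 measured inactivators, 8 were called, 3 higher and 5 lower. Of 12 measured genes of prenylation and membrane extraction (14 listed), 1 was called, and of 64 measured effectors, kinases and phosphatases (74 listed), 9 were called, 5 higher and 4 lower. The share of all genes called in this comparison was 16.7%. The medians were 0.04, 0.08, 0.04 and 0.02, beside 0.03 over all genes. None of these genes was called in any ethanol comparison.

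Among effectors, Myo5b, a myosin motor that Rab11 carriers use, stood at 7.06 in C57BL/6J and 7.99 in DBA/2J, a difference of 0.94 (SE 0.07, adjusted p = 1.28e-07, 6 arrays a strain). Myo5a, the myosin of the dilute coat colour locus and a partner of Rab27 and Rab3, went the opposite way, from 9.98 to 9.50 (-0.48, SE 0.07). Sytl1, a Rab27 effector, was higher by 0.71 (SE 0.07), and Sytl2, of the same family, lower, at -0.59 (SE 0.05). Lrrk2, the kinase that phosphorylates several Rabs, was lower, at -0.47 (SE 0.07). Hps1, part of the exchange factor for Rab32 and Rab38, was lower too, at -0.60 (SE 0.09).

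Among inactivators, Sgsm2 was higher in DBA/2J by 0.54 (SE 0.07), and Rab3gap1, a subunit of the Rab3 GTPase-activating complex, by 0.37 (SE 0.06). Tbc1d24, a synaptic protein with a TBC domain, was lower, at -0.48 (SE 0.12, adjusted p = 0.0133). It missed the threshold when fitted on all 66 arrays (adjusted p = 0.0704), where differences among BXD strains add to the spread. Chml, an escort protein for Rab prenylation, was higher by 0.36 (SE 0.07).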

How the data were processed

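RNA from pooled medial prefrontal cortex was read on 66 Affymetrix arrays. The deposited values are log2 expression levels made by the authors with RMA from the affy package, per the submitters' processing notes, with no version given there. Symbols were updated through Entrez identifiers with RefSeq's GRCm38.p6 table. Of 45037 probe sets, 18015 below the 40th percentile of mean level were left out, and the brightest was kept for each symbol, which left 13196 genes. The Rab members, gene lists and named genes were chosen with earlier results of these data known. Named Rab genes were those called, the 4 with the smallest p where none was, and Rab3a, Rab5a, Rab7 and Rab11a.

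Tests used limma 3.58.1 (lmFit and eBayes, R 4.3.3) with Benjamini-Hochberg adjustment over all 13196 genes, called below 0.05. Ethanol in BXD strains was fitted with strain as a block over 54 arrays (26 residual degrees of freedom), and strain differences with a moderated F test. The 12 progenitor arrays were fitted together (8 residual degrees of freedom). The number of arrays limits the precision. The fits were tested on simulated data whose planted ethanol changes and BXD strain effects were larger than those of the Rab genes. Their power at the sizes seen here was not tested. Saline and ethanol arrays pair by strain, per the labels, and over all 13196 genes 22 of 27 saline arrays correlated best with the ethanol array of their own strain. Alternatives were other filters, centring, normalization, probe set choice, priors, weights, blocks and left-out arrays.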

Additional observations from a re-analysis of the deposited data

How the results depend on the processing

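In the 5 ethanol comparisons no Rab gene was called under any alternative run. Averaged over treatments, the strain count of 8 ran from 5 to 8 with 1 array left out, and was 5 without C57BL/6J ethanol replicate 3 or DBA/2J ethanol replicate 1. Rab6a, Rab3c, Rab4a and Rab34 were called in all 21 alternatives, Rab24 and Rab3a were lost in 13 each. After saline the count of 6 ran from 2 to 6 with 1 array left out and was 3 when fitted on all 66 arrays. After ethanol the count of 3 ran from 1 to 5 with 1 array left out. It was 5 with the 60th percentile filter, with a trended robust prior and with array weights, and 0 in the fit on all 66 arrays. That fit has no term for BXD strain, so differences among the strains add to its spread. The count of 9 among BXD strains ran from 7 to 10 with 1 strain left out. It was 6 with quantile normalization repeated, which ended the calls of Rab27b (adjusted p = 0.07), Rab9b (0.0705) and Rab39b (0.146). The cause was not tested. The BXD ethanol difference of Rab11a, 0.00, changed sign in 10 settings that left out 1 strain, between -0.01 and -0.00, and ran from -0.00554 to 0.00981. Of 1511 comparisons of a value with its alternative, 1410 kept direction and side of the threshold, 89 fell outside it, 2 (Rab5a) came inside and 10 (Rab11a) reversed.

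Centring arrays on their medians gave 355 genes higher and 1013 lower in DBA/2J after saline (537 and 828 as deposited), with 0 and 4 Rab genes in place of 2 and 4, and 882 and 1079 averaged over treatments (1166 and 1040), with 3 and 3 Rab genes in place of 5 and 3. Repeated quantile normalization gave 479 and 456 after ethanol (573 and 381). Of 18 correlations of same-numbered deviations between the progenitor groups, 3 were over 0.1 (range -0.393 to 0.262). With 3 arrays a group they cannot settle whether replicate numbers pair the arrays, and no pairing was assumed. With the number as a replicate block the strain counts were 4 after saline, 2 after ethanol and 6 averaged, and ethanol counts were 0. Leaving the strain block out of the BXD fit also gave 0.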

Other observations

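Probe sets other than the brightest gave readings that the gene values above do not hold. Rab8a, a Rab of delivery to the surface, differed by 0.06 (SE 0.06) between the progenitors at its brighter probe set, whose ICC over the BXD strains was -0.03. A dim second probe set under the same symbol read 6.19 in C57BL/6J and 5.72 in DBA/2J, a difference of -0.46 (SE 0.09, adjusted p = 0.00301 over all probe sets), with an ICC of 0.74. Rab27b had a dim probe set at 6.39 in C57BL/6J and 5.87 in DBA/2J (-0.51, SE 0.11, adjusted p = 0.00607), beside 0.07 at its brightest. All 5 probe sets of Rab2b, a Golgi Rab, were higher in DBA/2J, and 1 was called (0.25, SE 0.07, adjusted p = 0.0199), while another had an ICC of 0.74 among the BXD strains. The second probe set of Rab2a had an ICC of 0.78, beside 0.64 for the brightest. Of its 5 probe sets, 3 were called among the BXD strains, and the dimmest had ICCs of -0.06 and -0.23. Over all probe sets, 18 of the family's 106 differed among BXD strains, in 13 genes, beside 17.7% of all probe sets. These probe sets were chosen after their values were seen.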
